A study of Mus musculus with 3 samples.

Results

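The genes described are the platelet-derived growth factor (PDGF) ligands Pdgfa (ENSMUSG00000025856), Pdgfb (ENSMUSG00000000489), Pdgfc (ENSMUSG00000028019) and Pdgfd (ENSMUSG00000032006) and the receptors Pdgfra (ENSMUSG00000029231) and Pdgfrb (ENSMUSG00000024620). They were taken by gene symbol from the feature lists of the deposited tables, which gave 6 of 33696 features, and all 6 had counts. The assay was droplet sequencing of RNA from single nuclei, which were isolated from frozen abdominal aorta on anti-nucleus beads. All mice were ApoE-/- on the C57Bl/6 strain, which removes apolipoprotein E and leads to atherosclerosis, and all were fed a high fat diet. The groups were room air, cigarette smoke without AAA (abdominal aortic aneurysm) and cigarette smoke with AAA, called the room air, smoke and aneurysm libraries below, since each group was 1 library after 20 weeks of diet and exposure. The labels do not give the age, the sex or how many animals a library holds.

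PDGF ligands are secreted dimers that bind receptor tyrosine kinases on neighbouring cells. PDGF-A and PDGF-C act mainly through the alpha receptor, PDGF-B binds both receptors, and PDGF-D acts mainly through the beta receptor. In the vessel wall, PDGF-B from endothelium recruits pericytes and smooth muscle cells during development, and PDGF-B and PDGF-D promote growth and migration of smooth muscle cells in plaque. The alpha receptor is best known from fibroblasts and other mesenchymal cells, and the beta receptor from smooth muscle cells, pericytes and fibroblasts.

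After filtering, 11022, 14001 and 5707 nuclei remained in the room air, smoke and aneurysm libraries, with medians of 4058.5, 6225 and 1443 unique molecular identifiers (UMIs, each marking 1 captured RNA molecule) per nucleus. The aneurysm library was therefore the shallowest and has the widest intervals. Between 26 and 46 deposited barcodes were shared by each pair of libraries, and between 17 and 36 after filtering. Nuclei were clustered without the 6 genes, and clusters were named from marker genes alone, so names end in "-like". Unnamed clusters held 26.3% of nuclei in the room air library, 27.6% in the smoke library and 32.0% in the aneurysm library. Levels are CPM, the UMIs of a gene in a cluster scaled to all UMIs of that cluster, with 95% Poisson intervals that cover counting error only. CPM is not corrected for gene length, so levels are compared between clusters and libraries and never between genes. With 1 library per group no test was possible, and each difference below is a difference between libraries that has no replicate check. In such sums, fewer expressing nuclei and less RNA per nucleus cannot be told apart.

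Pdgfa and Pdgfb were highest in macrophage-like clusters in the room air and smoke libraries, and Pdgfb was also high in endothelial-like clusters. Pdgfc was highest in a mesenchymal cluster with smooth muscle and fibroblast genes (cluster 5), with macrophage-like clusters next. Pdgfd was highest in the endothelial-like clusters. Pdgfra was highest in cluster 5 and in fibroblast-like nuclei, and Pdgfrb in smooth muscle-like cluster 8 and cluster 5. For Pdgfa, Pdgfc and Pdgfd, 3 of the 6 genes, the same cluster was highest in all 3 libraries. Clusters 8 and 12 had 11 and 12 of the 12 smooth muscle markers in at least 5% of nuclei, but their 10 leading genes held none of these and 2 and 1 markers of other classes, so they are compared by number. The macrophage-like nuclei differed in makeup: cluster 16 was 94 of 3966 in room air, 182 of 4564 in smoke and 339 of 780 in aneurysm, so values over all macrophage-like nuclei also move with this share.

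**Figure D1:**
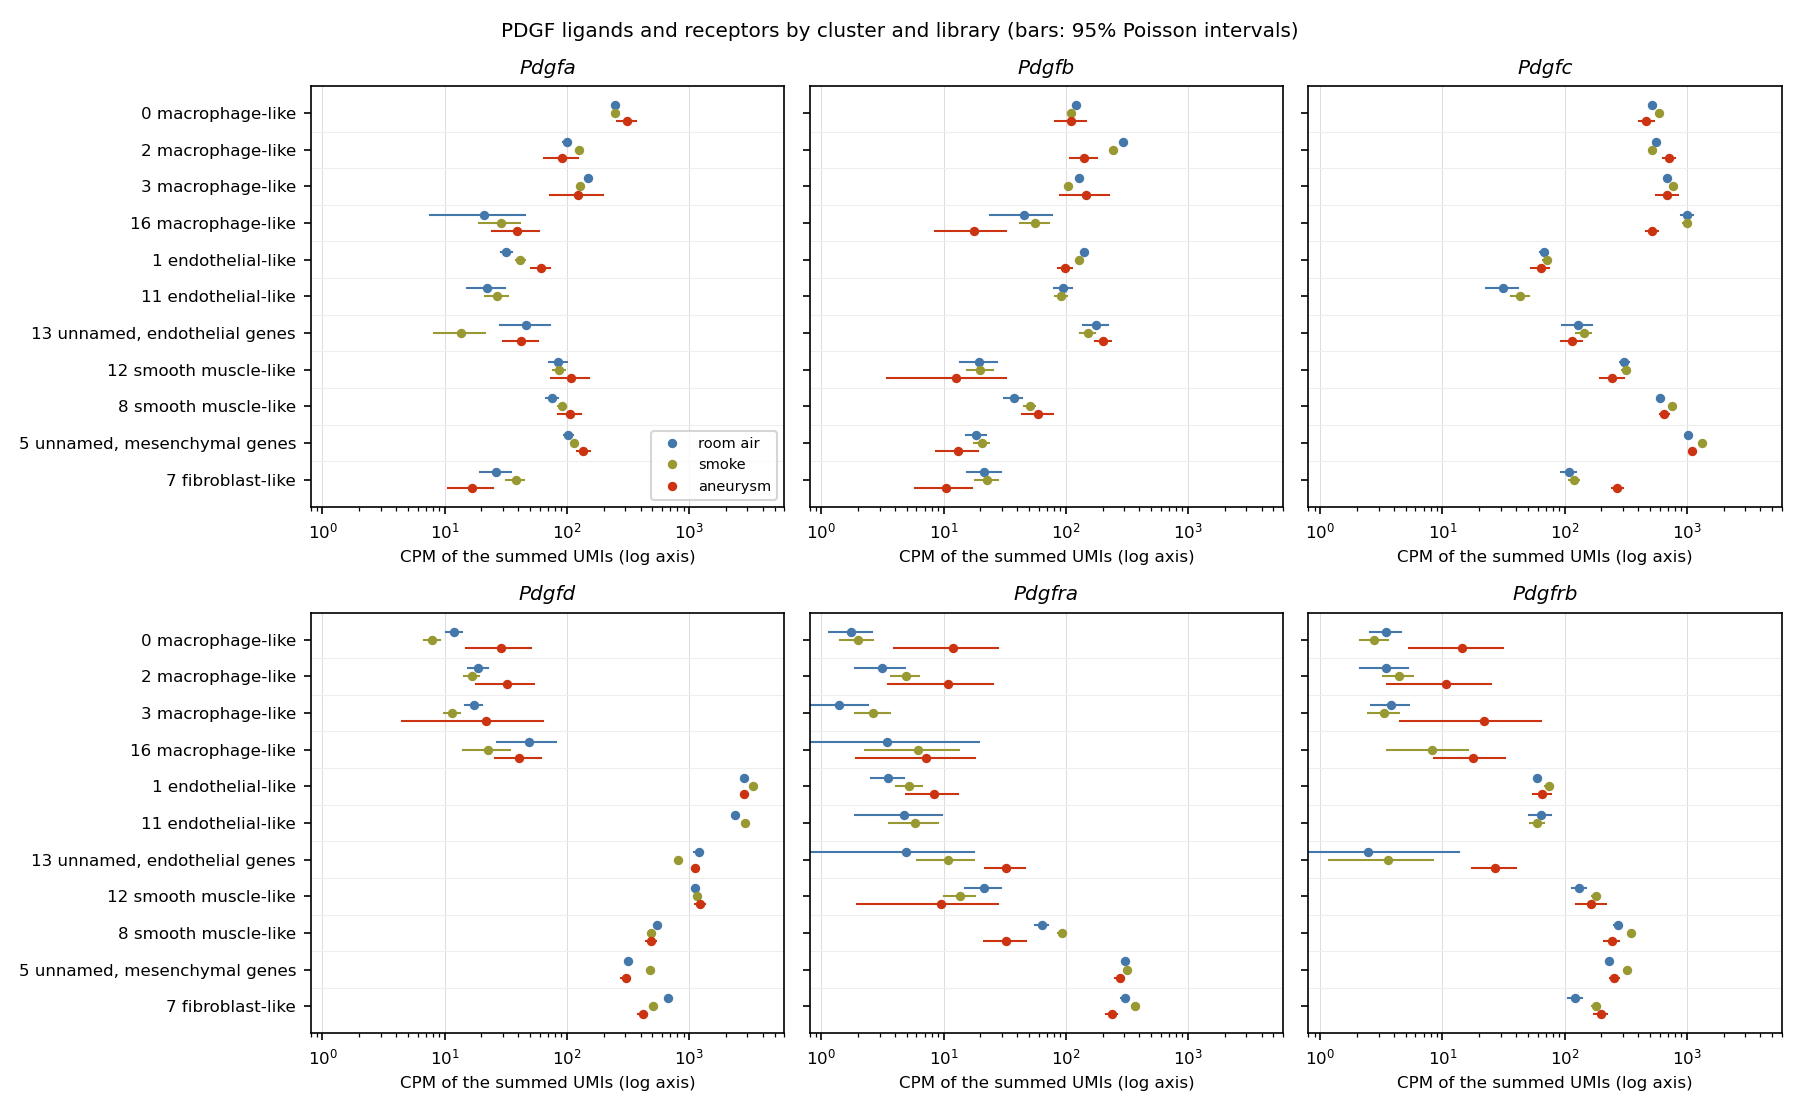
Level of each gene (CPM, log axis) in 11 clusters, with 1 point per library and bars for 95% Poisson intervals; clusters under 50 nuclei in a library and values of 0 are not drawn, and intervals reaching below the axis are clipped. Pdgfd stands above 2000 CPM in the endothelial-like clusters 1 and 11, whereas both receptors stay below 25 CPM in the macrophage-like clusters.

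Pdgfa, the ligand that pairs with the alpha receptor, was highest in cluster 0, macrophage-like nuclei led by Mmp12 and Mamdc2. Its level there was 249 CPM in the room air library (241 to 257, 3679 UMIs), 249 CPM in the smoke library (243 to 256, 5424 UMIs) and 310 CPM in the aneurysm library (259 to 368, 129 UMIs). The intervals of the aneurysm library and the room air library did not overlap, but the ratio stayed under 1.5. Other macrophage-like clusters differed widely from cluster 0. In cluster 16, led by F13a1 and Cd163, which mark resident macrophages, Pdgfa was at 20.8, 28.8 and 39.1 CPM in the room air, smoke and aneurysm libraries. Clusters 3 (149, 129 and 124 CPM) and 2 (100, 125 and 90.5 CPM) lay between them.

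Outside the macrophage-like clusters, Pdgfa was at 103, 115 and 137 CPM in cluster 5 and at 75.8, 90.9 and 106 CPM in smooth muscle-like cluster 8, in the order room air, smoke, aneurysm. The same order held in endothelial-like cluster 1, with 31.9 CPM (28.9 to 35.2), 41.6 CPM (38.2 to 45.3) and 61.1 CPM (51.2 to 72.5). No interval overlapped another there, and the aneurysm library was 1.91 times the room air library (1.56 to 2.33). In fibroblast-like cluster 7 the level was low and the aneurysm library was lowest, at 16.7 CPM against 26.3 and 38.0 CPM.

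Pdgfb, the ligand that binds both receptors, was highest in macrophage-like cluster 2 in the room air library (295 CPM, 282 to 309, 1804 UMIs) and in the smoke library (242 CPM, 234 to 251, 2875 UMIs). In the aneurysm library cluster 2 held 140 CPM (108 to 179, 65 UMIs), which was 0.578 times the smoke library (0.445 to 0.739) and 0.475 times the room air library (0.365 to 0.608). The libraries thus did not overlap in cluster 2, and the highest cluster in the aneurysm library was instead cluster 13, at 201 CPM, whose interval overlapped those of clusters 6, 3 and 2. In macrophage-like cluster 0, Pdgfb was at 120, 110 and 110 CPM, so the lower level of the aneurysm library was not seen in that cluster. In cluster 16, Pdgfb was at 45.1, 56.5 and 17.8 CPM (13, 55 and 10 UMIs).

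Endothelial-like cluster 1, led by Bmp6 and Edn1, had 140 CPM of Pdgfb in the room air library (134 to 147), 129 CPM in the smoke library (123 to 135) and 98.4 CPM in the aneurysm library (85.6 to 112). Cluster 13, an unnamed cluster of blood endothelial and lymphatic endothelial genes, had 177, 151 and 201 CPM. Within it, Pdgfb in the aneurysm library was at 343 CPM in sub-cluster 13b and 373 CPM in 13d, whereas 13a held 46.9 CPM and lymphatic-like 13c held 32.5 CPM. Sub-cluster 13d held 77 nuclei of the aneurysm library and 7 of each of the others, and without it cluster 13 was at 179, 141 and 156 CPM of Pdgfb, with intervals that overlapped. In the clusters with the highest receptor levels Pdgfb was low: cluster 7 had 10.5 to 22.5 CPM, cluster 5 had 13.1 to 20.4 CPM and cluster 8 had 37.4 to 59.2 CPM. In cluster 8 the aneurysm library was 1.58 times the room air library (1.12 to 2.20), opposite in direction to cluster 2.

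Pdgfc, a ligand released by proteolysis of its CUB domain, was highest in cluster 5 in each library, at 1026 CPM (1001 to 1052, 6085 UMIs) in room air, 1325 CPM (1303 to 1348, 13285 UMIs) in smoke and 1111 CPM (1067 to 1157, 2367 UMIs) in aneurysm. Cluster 5 was led by Grin2a and Grem1 and had markers of both smooth muscle and fibroblasts, so it was left unnamed. In the room air library it overlapped macrophage-like cluster 16, at 1003 CPM. Cluster 16 was at 998 CPM in the smoke library and at 521 CPM (463 to 584) in the aneurysm library, 0.522 times the smoke library (0.456 to 0.595). The nuclei of cluster 16 were not alike in the libraries: sub-cluster 16a held 316 of the 339 nuclei of the aneurysm library and 4 of 94 and 1 of 182 in the room air and smoke libraries.

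Pdgfc was also at 599, 748 and 653 CPM in smooth muscle-like cluster 8 and at 308, 315 and 244 CPM in smooth muscle-like cluster 12. The endothelial-like cluster 1 held 67.4, 71.6 and 63.4 CPM. In adipocyte-like cluster 14 the level was 411 CPM in the smoke library and 264 CPM in the aneurysm library. The aneurysm library was above both others in macrophage-like cluster 2, at 713 CPM against 559 and 523 CPM, and by more than 1.5 times in fibroblast-like cluster 7, at 270 CPM against 108 and 120 CPM.

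Pdgfd, the ligand of the beta receptor, was highest in endothelial-like cluster 1, at 2820 CPM (2791 to 2850) in room air, 3351 CPM (3320 to 3383) in smoke and 2790 CPM (2720 to 2861) in aneurysm. Cluster 11, endothelial-like and led by Pkhd1l1, was next in the room air library (2359 CPM) and the smoke library (2867 CPM). Smooth muscle-like cluster 12 was at 1124, 1167 and 1228 CPM, with intervals that overlapped between neighbouring libraries. Cluster 8 held 543, 488 and 488 CPM, but its sub-clusters differed: 8a held 689, 628 and 518 CPM and 8b held 196, 435 and 509 CPM, so within 8b smoke was 2.22 times room air (1.73 to 2.84) and aneurysm 2.60 times (2.12 to 3.19). Sub-cluster 8b was 134 of 493, 50 of 641 and 232 of 304 nuclei of cluster 8. Fibroblast-like cluster 7 held 673, 502 and 417 CPM, lowest in the aneurysm library. In cluster 13, at 1194, 817 and 1120 CPM, sub-cluster 13d held 62.5% of the Pdgfd UMIs of the aneurysm library, at 3361 CPM, and without it the cluster was at 721, 585 and 530 CPM. Macrophage-like nuclei held 15.2, 11.4 and 33.5 CPM, far below every endothelial-like or mesenchymal cluster named here.

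Cluster 5 was the mesenchymal cluster in which Pdgfd differed most between smoke and room air. It held 317 CPM (303 to 332), 482 CPM (468 to 496) and 302 CPM (279 to 326), so the smoke library was 1.52 times the room air library (1.44 to 1.60). The ratio was 1.73 within sub-cluster 5a, 1.44 within 5b and 1.45 within 5c, which means that the higher level was present in each. The aneurysm library was 0.626 times the smoke library in all of cluster 5, but 0.790, 0.778 and 0.814 times it within 5a, 5b and 5c. Sub-cluster 5a, led by Prg4 and Fap and with the lowest Pdgfd of the 3 in each library, held 676 of 790 nuclei of cluster 5 in the aneurysm library and 175 of 792 in the smoke library.

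Pdgfra, the alpha receptor, was at 304 CPM (291 to 319, 1805 UMIs) in room air, 316 CPM (305 to 327, 3163 UMIs) in smoke and 276 CPM (255 to 300, 589 UMIs) in aneurysm in cluster 5. Fibroblast-like cluster 7, led by C7, Abca8a and Scara5, held 306 CPM (282 to 332), 371 CPM (351 to 391) and 237 CPM (212 to 264). These clusters overlapped in the room air and aneurysm libraries, and no other compared cluster came within 3 times their level, except cluster 20 in the smoke library (376 CPM). That cluster was neuron-like as a whole, but 45 of its 69 nuclei in the smoke library were in unnamed sub-cluster 20b and 16 in neuron-like 20a. Smooth muscle-like cluster 8 held 63.5, 92.8 and 32.6 CPM, and cluster 12 held 21.3, 13.6 and 9.52 CPM. Pdgfra was near the floor of the data in endothelial-like cluster 1 (3.52 to 8.28 CPM) and in macrophage-like nuclei (1.94 to 8.86 CPM).

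The alpha receptor was lower in the aneurysm library than in the smoke library in cluster 8 (0.351 times, 0.230 to 0.515) and in cluster 7 (0.639 times, 0.566 to 0.721). In cluster 7 the ratio was within 1.5-fold without sub-cluster 7d (0.792, 0.690 to 0.907), within 7a (0.907, 0.702 to 1.18) and within 7b (0.816, 0.631 to 1.04). Sub-cluster 7c, with 24 nuclei in the aneurysm library, had too few for a ratio. Its Pdgfra was at 536 CPM in smoke and was lower in aneurysm (values below). In cluster 8 the difference was present in both sub-clusters with enough nuclei, at 42.0 against 101 CPM in 8a (0.415 times, 0.213 to 0.731) and 30.1 against 74.9 CPM in 8b (0.401 times, 0.191 to 0.824). The aneurysm values rest on 12 and 15 UMIs. Sub-cluster 8c, led by Acan, held 115 nuclei of the smoke library, 6 of the room air library and 2 of the aneurysm library, and without it cluster 8 was at 62.7, 87.9 and 33.1 CPM of Pdgfra.

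Pdgfrb, the beta receptor, was highest in smooth muscle-like cluster 8 in the room air library (272 CPM, 255 to 289) and the smoke library (348 CPM, 336 to 361), where cluster 5 followed at 232 and 324 CPM without overlap. In the aneurysm library the order was cluster 5 (255 CPM, 234 to 277), cluster 8 (244 CPM, 211 to 280), cluster 7 (197 CPM, 175 to 222) and cluster 12 (165 CPM, 123 to 216), and each overlapped the next. In the other libraries clusters 7 and 12 were at 121 and 131 CPM (room air) and 181 and 181 CPM (smoke). All 4 mesenchymal clusters were thus higher in the smoke library than in the room air library, by less than 1.5 times in each, and cluster 7 alone among them was highest in the aneurysm library, where its interval overlapped that of the smoke library. Within cluster 5, Pdgfrb was at 254, 333 and 278 CPM in 5a, 267, 348 and 176 CPM in 5b and 192, 280 and 199 CPM in 5c. Aneurysm over smoke was 0.833 in 5a, 0.507 in 5b and 0.710 in 5c, of which 5b alone passed 1.5-fold, and without 5a cluster 5 was at 229, 323 and 190 CPM, 0.588 times the smoke library in aneurysm (0.479 to 0.715).

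Endothelial-like clusters also had Pdgfrb, at 59.8 CPM (55.6 to 64.3), 74.1 CPM (69.5 to 78.9) and 65.3 CPM (55.0 to 76.9) in cluster 1. Doublets remain in these data. The sum of Myh11, Acta2, Tagln, Myocd, Cnn1 and Lmod1 was 99.7, 169 and 97.9 CPM in cluster 1. In the nuclei of cluster 1 without any UMI of those genes (852, 720 and 444 nuclei), Pdgfrb was at 56.9, 75.9 and 58.1 CPM. The part of RNA from other cells in this level was not tested. Macrophage-like nuclei held 3.52, 3.43 and 15.2 CPM.

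In the aneurysm library, Pdgfd, Pdgfra and Pdgfrb were higher than in the other libraries in macrophage-like nuclei, and both receptors in cluster 13, at low levels. In macrophage-like nuclei, Pdgfra was at 1.94, 2.96 and 8.86 CPM (58, 145 and 14 UMIs). In cluster 13, Pdgfrb was at 2.46, 3.60 and 27.0 CPM (1, 5 and 25 UMIs). The 12 smooth muscle markers summed to 366, 395 and 627 CPM in cluster 13, with Cnn1, Actg2 and Des at 0 in room air, Actg2 and Des in smoke and Des in aneurysm. In macrophage-like nuclei they summed to 84.4, 77.9 and 195 CPM, with Cnn1, Actg2 and Des at 0 in aneurysm, and the 17 fibroblast markers to 170, 184 and 276 CPM with none at 0. Markers of other lineages were thus also highest in the aneurysm library in both, and their part in the receptor values was not tested. Low receptor levels were also higher in aneurysm than in smoke in adipocyte-like nuclei. Pdgfra was there at 7.79 against 1.09 CPM (19 and 2 UMIs) and Pdgfrb at 19.7 against 5.99 CPM (48 and 11 UMIs).

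The share of each gene's UMIs that a class held depended also on how many nuclei the class had (the stacked plot of UMI shares). Macrophage-like clusters held 69.7% of Pdgfa UMIs in the room air library, 64.4% in the smoke library and 21.1% in the aneurysm library. Their share of all UMIs was 43.7%, 42.3% and 12.4%. For Pdgfb the macrophage-like share was 56.0%, 56.8% and 18.1%, and for Pdgfc 56.9%, 51.7% and 16.9%. Cluster 5 held 7.62%, 8.46% and 29.2% of Pdgfa and 19.9%, 22.1% and 43.8% of Pdgfc, against 8.7%, 8.7% and 16.7% of all UMIs.

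In the aneurysm library the mesenchymal cluster 5 thus held more Pdgfa and Pdgfc UMIs than all macrophage-like nuclei, and the clusters of endothelial genes (1, 11 and 13) held 52.4% of Pdgfb UMIs, against 23.3% in room air and 18.4% in smoke. These clusters held 21.1%, 15.4% and 25.1% of all UMIs in the room air, smoke and aneurysm libraries. For Pdgfd the endothelial share was 79.6%, 71.8% and 73.6%. Clusters 5, 7, 8 and 12 together held 89.2%, 86.8% and 90.8% of Pdgfra UMIs and 19.7%, 22.1% and 36.9% of all UMIs. The nuclei were purified on a magnetic column and each group is 1 library, so the makeup of the wall and the yield of nuclei cannot be told apart in these shares.

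**Figure D2:**
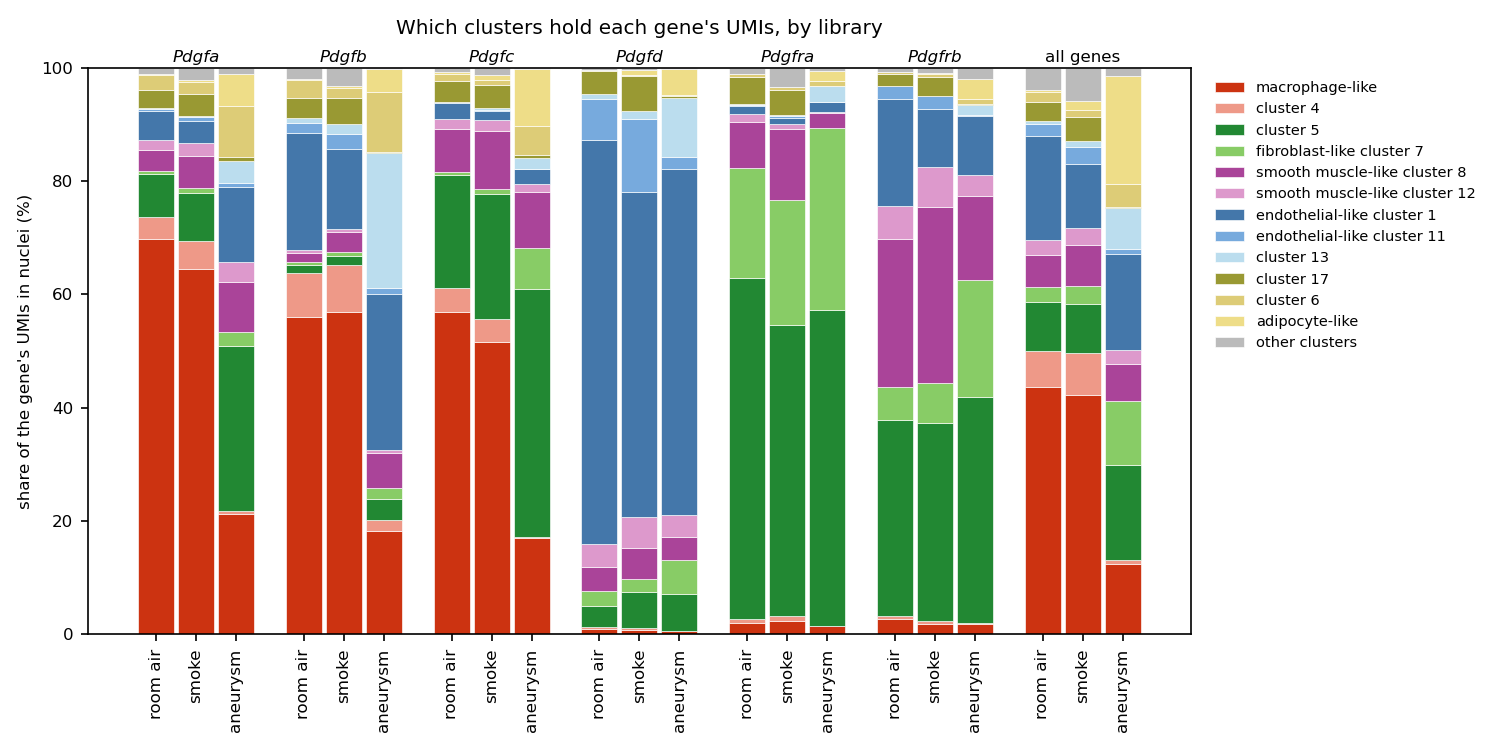
Share of each gene's UMIs (%, stacked to 100) held by each cluster or class in each library, with the share of all genes' UMIs at the right. Macrophage-like nuclei (red) fill most of the Pdgfa, Pdgfb and Pdgfc bars in room air and smoke and 16.9% to 21.1% of them in the aneurysm library.

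Ratios between libraries were counted over clusters with at least 50 nuclei in each and over genes with 20 UMIs or more in the pair of libraries. Clusters 6 (shallow and unnamed) and 17 (markers of mixed lineages) were left out. Clusters 10 and 18, about as shallow as cluster 6, had markers of their named class among their leading genes and were kept. The comparisons share libraries, so their counts are given side by side and are not independent. Between smoke and room air, 89 values of the 6 genes in 16 clusters were compared, of which 6 were at least 1.5-fold higher and 10 at least 1.5-fold lower in smoke. Over all genes in the same clusters, 13.7% of values were that much higher and 6.45% that much lower. Most of the PDGF values therefore lay within 1.5-fold.

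Between aneurysm and smoke, 15 of 70 values in 13 clusters were at least 1.5-fold higher and 15 at least 1.5-fold lower, beside 17.0% and 20.2% of all gene values. Between aneurysm and room air, 15 of 57 values in 10 clusters were higher and 9 lower, beside 17.7% and 15.5%. The shares of the PDGF genes were near those of all genes for each direction of the first of these, and for the lower values of the second. Of the higher values in the aneurysm library, 11 of 15 against smoke and 9 of 15 against room air were Pdgfd or a receptor in a macrophage-like cluster or a receptor in cluster 13, none above 40.9 CPM.

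**Figure D3:**
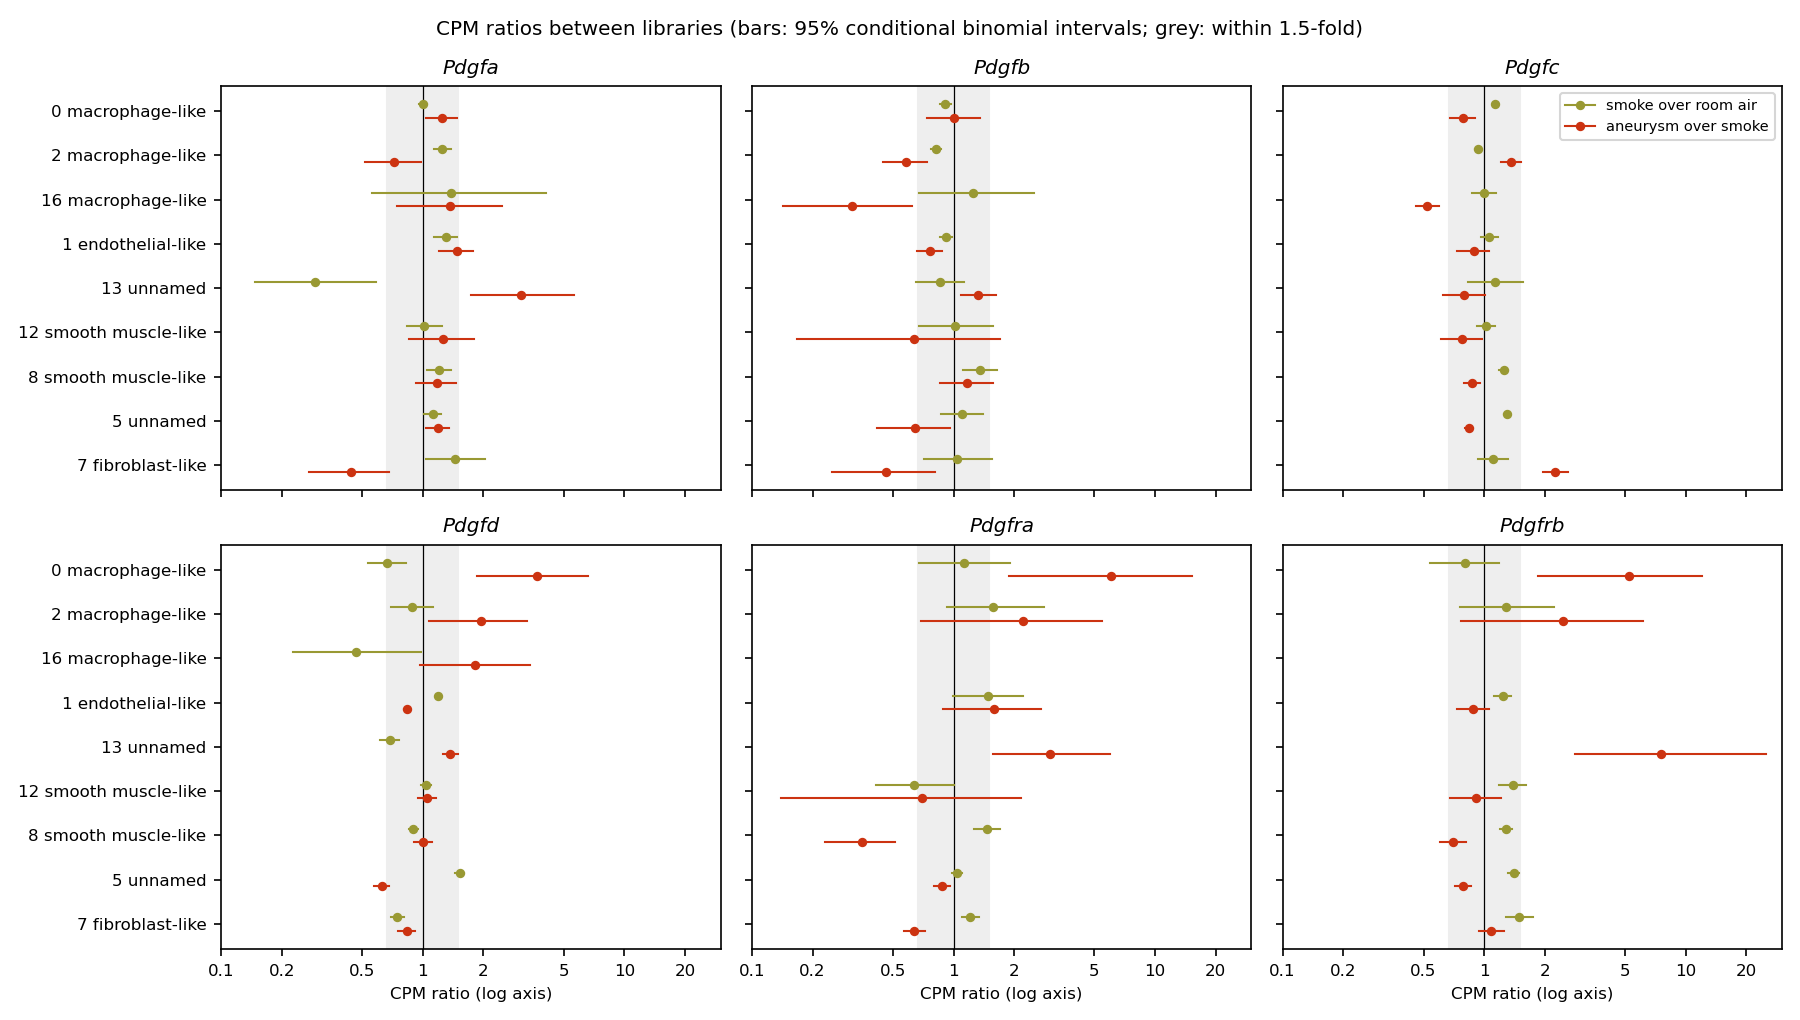
CPM ratio (log axis) of smoke over room air and of aneurysm over smoke for each gene in 9 clusters, with bars for 95% conditional binomial intervals and a grey band for ratios within 1.5-fold. Most points of smoke over room air lie in the band, and in fibroblast-like cluster 7 the aneurysm library lies above the band for Pdgfc and below it for Pdgfa, Pdgfb and Pdgfra.

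Fibroblast-like cluster 7 had the widest spread of PDGF ratios between the aneurysm and smoke libraries among clusters with both receptors at high levels. Pdgfc was 2.26 times the smoke library (1.96 to 2.59), while Pdgfra was 0.639 times, Pdgfa 0.440 times (0.273 to 0.681) and Pdgfb 0.464 times (0.248 to 0.809). In the same cluster, 14.9% of all genes were at least 1.5-fold higher and 19.5% at least 1.5-fold lower. Pdgfrb was 1.62 times the room air library in the aneurysm library (1.36 to 1.94), and Pdgfd was 0.621 times (0.562 to 0.684).

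The sub-clusters of cluster 7 differed in number between the libraries. Sub-cluster 7d, led by Sema3c, Gfpt2, Pcsk6, Cd55 and Pi16, held 16 of 465 nuclei in room air (3.44%), 24 of 605 in smoke (3.97%) and 190 of 730 in aneurysm (26.0%). Pi16 and Cd55 are known from adventitial fibroblasts. Sub-cluster 7a, led by Sntg1, Sned1 and Scara5, held 113, 136 and 428 nuclei. Sub-clusters 7b (Plcxd3, Adamtsl1, Gpc3) and 7c (Lama2, Fbln1, Dchs2) held 199, 236 and 58 nuclei and 105, 123 and 24 nuclei.

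Sub-cluster 7d held 290 of the 388 Pdgfc UMIs of cluster 7 in the aneurysm library (74.7%, 70.1 to 79.0), against 7.28% in room air and 1.36% in smoke. Its Pdgfc level was 298, 61.0 and 499 CPM, the first values from 15 and 6 UMIs. Without 7d, Pdgfc in cluster 7 was at 103, 121 and 115 CPM, and the aneurysm library was 0.945 times the smoke library (0.751 to 1.18). Within 7a (164, 116 and 138 CPM) and 7b (61.9, 54.6 and 56.0 CPM) the libraries overlapped. The higher Pdgfc of cluster 7 in the aneurysm library was thus held by 7d.

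The beta receptor was low in 7d, at 19.9, 91.5 and 49.9 CPM (1, 9 and 29 UMIs). Without 7d, Pdgfrb in cluster 7 was at 124 CPM (109 to 141), 184 CPM (170 to 198) and 297 CPM (262 to 336), so the aneurysm library was 1.62 times the smoke library (1.39 to 1.87) and 2.39 times the room air library (2.00 to 2.87). In 7a the aneurysm library was at 321 CPM against 150 CPM in smoke (2.15 times, 1.53 to 3.06) and 143 CPM in room air. In 7b the levels were 118, 200 and 257 CPM, and in 7c 162, 261 and 428 CPM. The aneurysm library, with 24 nuclei in 7c, was highest in all 3, and its interval overlapped that of the smoke library in 7b and 7c. In 7a the 12 smooth muscle markers summed to 1056, 1024 and 922 CPM and the 11 pericyte markers to 484, 602 and 659 CPM, with Higd1b and Cox4i2 at 0 in each library. In 7b the sums were 1536, 1383 and 891 CPM and 942, 885 and 1017 CPM, with 8 of the 11 pericyte markers at 0 in aneurysm. In both, the pericyte sums were thus highest in the aneurysm library and the smooth muscle sums lowest. Between room air and smoke in 7b, the pericyte sum was 942 and 885 CPM and Pdgfrb was 118 and 200 CPM. These sums have no intervals, and their part in Pdgfrb was not tested.

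Pdgfra was at 320, 333 and 302 CPM in 7a, where the libraries overlapped, at 330, 406 and 331 CPM in 7b, highest in smoke in 7c (296, 536 and 300 CPM) and lower in 7d (278, 193 and 148 CPM). Without 7d it was at 307, 375 and 297 CPM in cluster 7. Pdgfd without 7d was at 680, 497 and 390 CPM. For Pdgfa and Pdgfb without 7d, aneurysm over smoke was 0.608 (0.360 to 0.976) and 0.657 (0.336 to 1.19), against 0.440 and 0.464 with it, and Pdgfa in 7a was at 0.769 (0.318 to 1.93) from 14 and 10 UMIs.

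**Figure D4:**
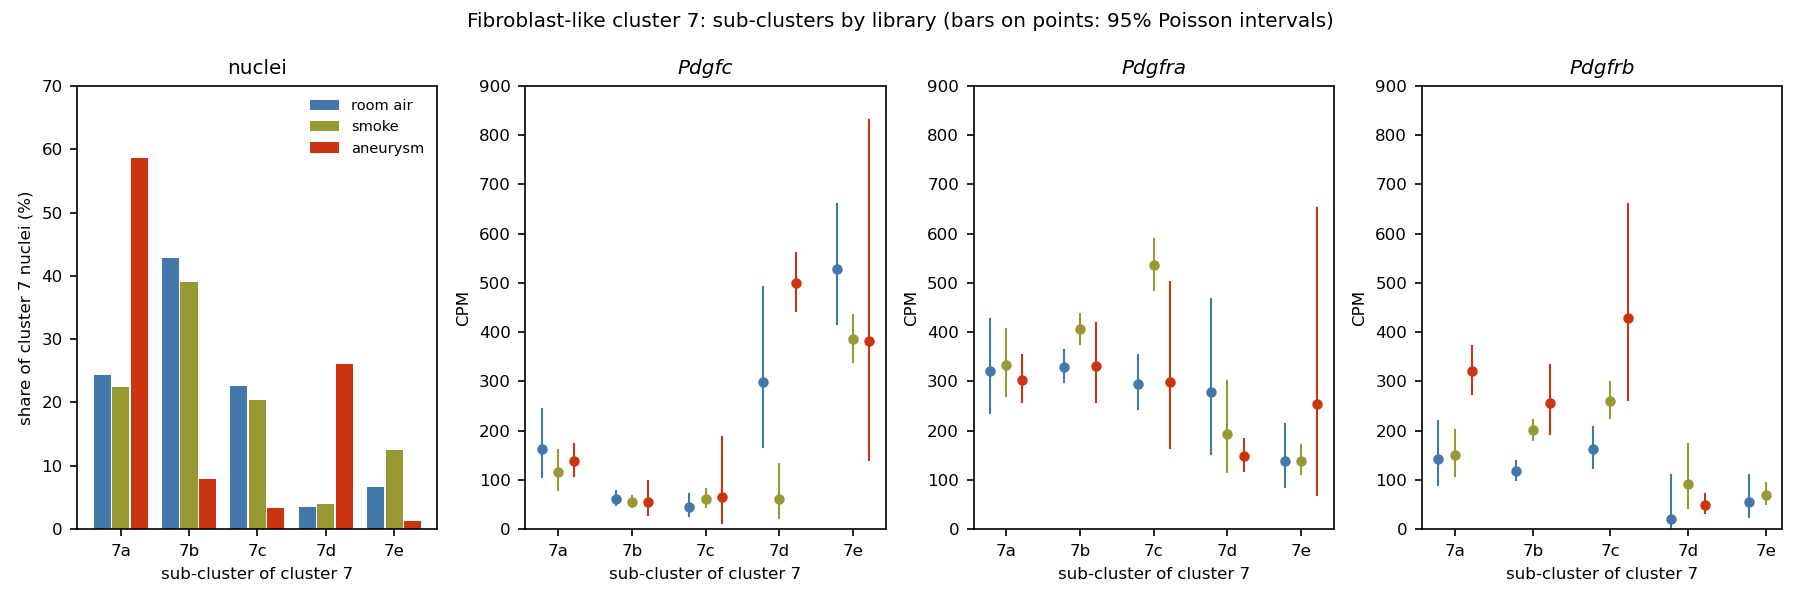
Share of cluster 7 nuclei in each sub-cluster (%, left) and CPM of Pdgfc, Pdgfra and Pdgfrb in each sub-cluster and library, with 95% Poisson intervals. Sub-cluster 7d makes up 26.0% of cluster 7 in the aneurysm library and has its highest Pdgfc among 7a to 7d, and Pdgfrb is highest in the aneurysm library in 7a, 7b and 7c.

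Nuclei with both receptors were counted in the clusters that had both (the plot of nuclei with a receptor UMI). In cluster 5, 42.9% of nuclei in room air, 57.7% in smoke and 15.8% in aneurysm had a UMI of both. In cluster 7 the shares were 17.0%, 32.1% and 7.67%, and in cluster 8 they were 19.3%, 37.4% and 4.61%. Macrophage-like nuclei, taken as a class that should lack the receptors, had Pdgfra UMIs in 1.44%, 2.94% and 1.67% of nuclei and Pdgfrb UMIs in 2.50%, 3.31% and 2.82%, with both in 3, 6 and 2 nuclei. Median depths were 6906, 11290 and 1888.5 UMIs in cluster 5 and 5522.5, 8828.5 and 1503 UMIs in macrophage-like nuclei.

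When each nucleus was thinned to 500 UMIs, which left out no nucleus, the shares with both receptors in cluster 5 were 1.27% (0.584 to 2.41), 3.16% (2.05 to 4.62) and 1.52% (0.787 to 2.64). The intervals of all 3 libraries overlapped, and so did those of clusters 7 and 8. Single receptors were then detected in 10.3%, 13.4% and 11.0% (Pdgfra) and 11.0%, 17.3% and 11.1% (Pdgfrb) of cluster 5. The corresponding macrophage-like shares were 0.202%, 0.219% and 0.641% and 0.202%, 0.241% and 1.15%.

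Over the 3 libraries, Pdgfrb was detected in 73.6% of the cluster 5 nuclei with Pdgfra and in 45.5% of the others, but these nuclei had medians of 9437 and 2420.5 UMIs. After thinning the shares were 17.3% and 12.7%. In cluster 8 they were 33.3% of 39 nuclei and 14.9%. Detection of the receptors together, as deposited, moved with depth, and how many nuclei carry both was not measurable at this depth.

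**Figure D5:**
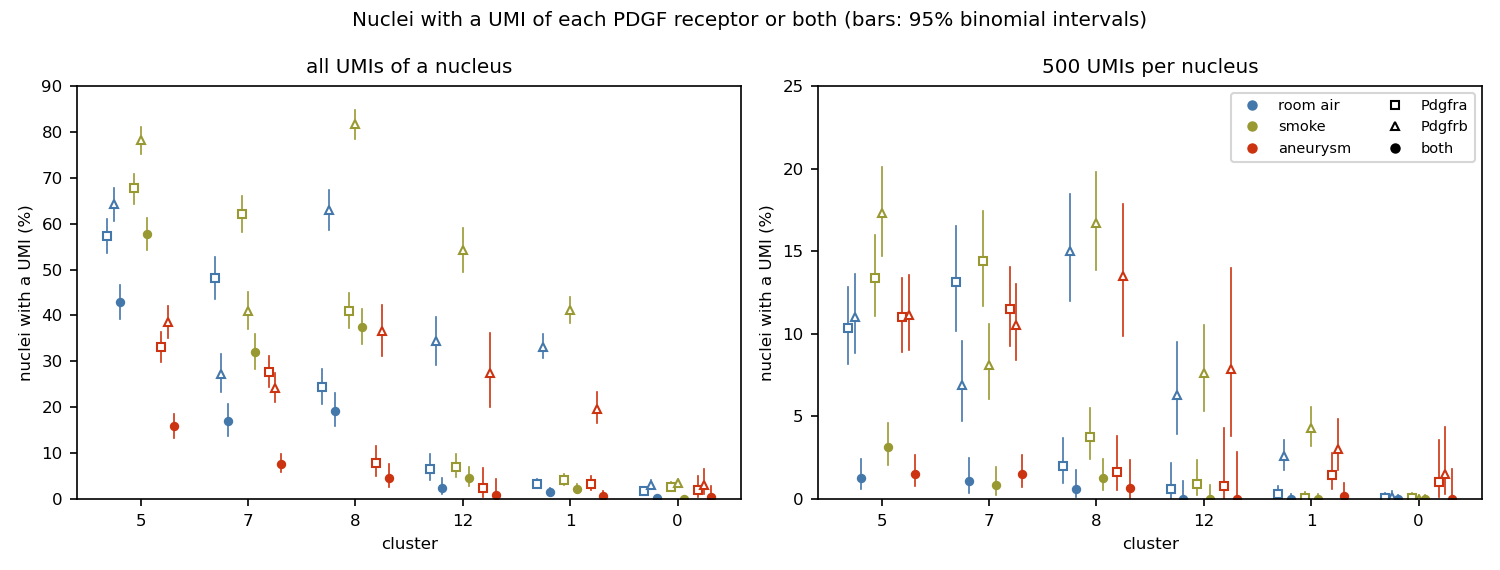
Share of nuclei (%) with a UMI of Pdgfra (squares), Pdgfrb (triangles) or both (filled points) in 6 clusters and 3 libraries, as deposited (left) and after thinning to 500 UMIs per nucleus (right, with a shorter axis). Bars are 95% exact binomial intervals, and the separation of the libraries in cluster 5 at the left (15.8% to 57.7% with both) shrinks to 1.27% to 3.16% at the right.

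Genes of the PDGF pathway were read from 6 lists, with the same 1.5-fold count and the median log2 ratio beside those of all genes in the cluster. PDGF-C and PDGF-D are latent until cut by tissue or urokinase plasminogen activator (Plat, Plau) or matriptase (St14), and PDGF-A and PDGF-B are cut by proprotein convertases such as furin and Pcsk5. In cluster 7, 3 of 6 such genes were higher and 2 lower in aneurysm than in smoke, beside 14.9% and 19.5% of all genes, with the larger share of 7d in the aneurysm library. Pcsk6, a convertase, was at 53.1, 77.2 and 745 CPM there (101, 284 and 1069 UMIs), 9.66 times the smoke library (8.46 to 11.0). Pcsk6 was among the genes that define 7d, where it was at 616, 1088 and 1609 CPM, and it was at 75.0, 74.8 and 174 CPM in 7a.

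Plat in cluster 7 was at 179, 67.9 and 135 CPM, lowest in smoke. In endothelial-like cluster 1, Plat was at 54.0, 65.8 and 112 CPM, highest in aneurysm, and 4 of 7 processing genes were at least 1.5-fold higher in aneurysm than in room air, beside 14.2% of all genes. Over all macrophage-like nuclei Plau was at 97.1, 88.5 and 44.9 CPM, but in cluster 0 it was at 149, 146 and 144 CPM. Furin was at 98.4, 87.8 and 55.1 CPM over all of them and at 99.3, 66 and 74.5 CPM in cluster 0, 144, 153 and 73.3 CPM in cluster 2, 67.2, 69.9 and 58.4 CPM in cluster 3 and 27.8, 43.1 and 24.9 CPM in cluster 16.

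Among genes that hold PDGF at the cell surface or in the matrix, Ext1, which makes heparan sulphate chains, was at 1821, 1456 and 3134 CPM in cluster 7. Within sub-clusters it was at 1424, 1881 and 1619 CPM in 7a, 1482, 1215 and 1301 CPM in 7b, 2143, 1593 and 2439 CPM in 7c and 8685, 3997 and 5431 CPM in 7d. The aneurysm library was thus highest in 7c alone, where its interval overlapped that of room air. Nrp1, a co-receptor, was at 601, 844 and 405 CPM in cluster 7, and at 572, 867 and 612 CPM in 7a, 583, 804 and 345 CPM in 7b, 556, 789 and 749 CPM in 7c and 258, 254 and 194 CPM in 7d. Sparc, a matrix protein that binds PDGF-B, was at 200, 401 and 139 CPM in cluster 1 and was 2.01 times the room air library in smoke (1.91 to 2.10). It was the only 1 of 11 genes of that list in cluster 1 that passed 1.5-fold in that comparison. Of all genes in cluster 1, 13% were at least 1.5-fold higher and 3.76% at least 1.5-fold lower in smoke than in room air.

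Of 18 signalling proteins that bind the activated receptors or act just below them, 0 were higher and 0 lower in cluster 1 in smoke against room air, beside 13% and 3.76% of all genes. In aneurysm against smoke, 0 were higher and 0 lower in cluster 5, beside 11.1% and 17.9%, and 0 were higher and 2 lower in cluster 7, beside 14.9% and 19.5%. Over macrophage-like nuclei, 1 was higher and 0 lower in that comparison, beside 23.0% and 17.3%. Of the receptor phosphatases and degradation genes, 0 of 13 were higher and 1 lower in cluster 5 in aneurysm against smoke, and in cluster 7 Spry2, an inhibitor of receptor signalling, was at 45.2, 28.8 and 70.4 CPM. Of the other class III receptors and ligands, Flt3l, the ligand of Flt3, was at 27.3, 44.6 and 18.8 CPM in cluster 7.

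The early response genes are transcription factors and phosphatases that growth factors and many other stimuli induce, and many of them passed 1.5-fold. In cluster 1, 9 of 15 were at least 1.5-fold higher and 0 lower in smoke than in room air, beside 13% and 3.76% of all genes, with a median log2 ratio of 0.68 against 0.07 for all genes. Egr1 was at 224, 398 and 332 CPM, Ier2 at 65.6, 128 and 131 CPM and Klf4 at 91.1, 135 and 242 CPM in the room air, smoke and aneurysm libraries. In macrophage-like nuclei, 5 of 16 were higher and 0 lower in smoke than in room air, beside 10.5% and 5.26%. There 7 of 14 were higher and 1 lower in aneurysm than in smoke, beside 23.0% and 17.3%, and Egr1 was at 19.8, 20.1 and 93.1 CPM. Egr1 was at 240, 172 and 205 CPM in cluster 16, 13.4, 11.4 and 40.8 CPM in cluster 0 (17 UMIs in aneurysm) and 21.6, 25.7 and 28.0 CPM in cluster 2. The larger share of cluster 16 in the aneurysm library stands beside the pooled value.

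In cluster 5, 0 of 16 early response genes were higher and 7 lower in aneurysm than in smoke, with a median of -0.53 against -0.04, beside 11.1% and 17.9% of all genes. Sub-cluster 5a held 676 of 790 nuclei of cluster 5 in aneurysm and 175 of 792 in smoke. In cluster 7, 1 of 14 was higher and 4 lower, beside 14.9% and 19.5%. Fosb, an AP-1 subunit, was at 107, 107 and 39.0 CPM in cluster 5, at 831, 952 and 295 CPM in cluster 7 and at 272, 220 and 77.3 CPM in cluster 8. It was lowest in the aneurysm library in each, and in endothelial-like cluster 1 as well (479, 539 and 201 CPM). These genes also respond to tissue handling, and the part of nuclei isolation was not tested.

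The genes most like each member were found over 22 sums of 9 named classes by library, as Pearson's r of log2(CPM + 1). Unnamed clusters were left out, among them cluster 5, the highest for Pdgfc in each library and among the highest for both receptors. The sums of a library share its depth and those of a class its cells, so r is only a description. Pdgfa was most like Mertk (0.87), Slc25a43 (0.86) and Abl2 (0.83), and Pdgfb like Chek2 (0.93), Med23 (0.90) and Casd1 (0.89). Pdgfc was most like Fam110b (0.87), Map3k20 (0.81) and Itgb5 (0.79), and Pdgfd like Gata6 (0.98), Mecom (0.97) and Wwtr1 (0.96). Pdgfra was most like Robo1 (0.93), Tnxb (0.92) and Sntg1 (0.92), and Pdgfrb like Col5a1 (0.98), Gpc6 (0.98) and Lhfp (0.97). Mertk, Mecom and Tnxb are also markers of the macrophage, endothelial and fibroblast sets used to name clusters. Among the members themselves, r was 0.75 for Pdgfd with Pdgfrb, 0.71 for the receptors and 0.67 for Pdgfa with Pdgfc.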

How the data were processed

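Per the labels' protocols, frozen abdominal aortae were lysed and dounced and nuclei purified with anti-nucleus beads. The authors deposited UMI counts per gene and barcode, raw and not normalized, as 10x matrices. Reads were processed with Cell Ranger 2.2.0 and STAR against mm10 per the submitters' processing notes, but with cellranger 8.0.1 per the file headers. Since these differ, no coordinates are given.

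Of 35396 barcodes, 30730 with 500 or more UMIs, 300 or more genes and a mitochondrial share below 5% were kept. They were clustered with scanpy 1.11.5 and leidenalg 0.10.2 (2000 variable genes without the members and the 6 pathway lists, 30 components, 20 neighbours, resolution 1), without batch integration, giving 23 clusters, of which 6 were split further at resolution 0.3. Scrublet marked 0 barcodes in each library, so it had not worked and doublets remain. A name needed a marker score of 0.5, a margin of 1 (both set after seeing the data) and 3 markers in 5% of nuclei. UMIs were summed per cluster and library. CPM carry exact Poisson, shares exact Clopper-Pearson and ratios exact conditional binomial 95% intervals, which cover counting error only. A gene needed 20 UMIs in the pair of libraries compared. No p-value is given, as each group is 1 library. Total depth was 73891039, 117247048 and 15634797 UMIs in the room air, smoke and aneurysm libraries.

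All 6 members are named, with the 3 genes most like each and, from each list, genes furthest from a ratio of 1 by the nearer bound of the interval. Members, lists and rules were chosen with earlier results of these data known. Sub-cluster values were added after seeing the data. Alternatives varied the barcode filters, resolution, components, joint clustering, doublet scores, depth, scaling and UMI minimum. The ratio script was tested on simulated data.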

Additional observations from a re-analysis of the deposited data

Results flagged for a closer look

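Pdgfb differed between the aneurysm and room air libraries in opposite directions in different clusters. The ratio was 1.58 in smooth muscle-like cluster 8 and 0.475 in macrophage-like cluster 2. The difference between these ratios was not tested, since each group is 1 library. In cluster 8 the value rests on 49 and 143 UMIs.

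Pdgfra was at 604 CPM in sub-cluster 20b of the smoke library, against 376 CPM in the whole of cluster 20, the highest cluster compared for that gene in that library. Sub-cluster 20b was unnamed, was led by Dnajc6, Colq and Gfra2 and held 45 nuclei, too few for the comparisons. Its best marker score was for fibroblasts (1.49), with a margin of 0.313, below the margin of 1 that a name needed.

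Pdgfrb was at 1175 CPM in cluster 22 of the aneurysm library, against 255 CPM in cluster 5, the highest cluster compared. Cluster 22 was pericyte-like, the class for which this receptor is best known, and its value rests on 19 UMIs in 15 nuclei. The room air and smoke libraries had 2 nuclei and 1 nucleus in it and 0 UMIs of Pdgfrb.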

How the results depend on the processing

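Of the 70 ratios at least 1.5-fold from 1, all that could be recomputed kept their direction in the settings that follow. These were at least 1000 UMIs per nucleus (69), resolution 0.5 (59), each library clustered alone (50) and nuclei thinned to 500 UMIs (22). The others were median-ratio size factors (70) and the highest single-nucleus count of each gene taken out of each sum (68). Past 1.5-fold were 55, 50, 44, 13, 66 and 66 of them. Other UMI minimums (50 and 70 ratios) changed only which ratios were counted and not their values, so they could not change a direction. Size factors scale all ratios of a cluster by the same constant. In no cluster was it far enough from 1 to turn a ratio past 1.5-fold to the other direction.

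Reversed log2 ratios were, for aneurysm over smoke, Pdgfra in cluster 2 (-0.11 with no mitochondrial limit and -1.08 with no filter, from 1.14), Pdgfra in cluster 1 (-0.18 with no filter, from 0.67), Pdgfrb in cluster 2 (-0.12 with 15 components, from 1.30), Pdgfb in cluster 12 (0.45 without the highest 5% of Scrublet scores, from -0.66) and Pdgfc in cluster 7 (-0.081 without sub-cluster 7d, an alternative added after seeing the data, from 1.17). For aneurysm over room air they were Pdgfra in cluster 2 (-0.39 with no filter, from 1.79), Pdgfd in cluster 2 (-0.084 at resolution 2, from 0.78) and Pdgfrb in cluster 3 (-0.017 with members and lists among the variable genes, from 2.52). For smoke over room air it was Pdgfc in cluster 19 (-0.31 with 15 components, from 0.67). The cause of these reversals was not tested.

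With each library clustered alone, 1 member in place of 3 was highest in the same cluster in all 3 libraries, higher values went from 6 to 13 (smoke over room air) and from 15 to 7 (aneurysm over room air), and both receptors were found in 31.8% (room air) and 49.7% (smoke) of cluster 5. Thinning left fewer values past the UMI minimum: 4 higher and 8 lower (aneurysm over smoke), 5 and 5 (aneurysm over room air), 49 lower list values in place of 74, and 1.27%, 3.16% and 1.52% of cluster 5 with both receptors. The 10 lower values of smoke over room air became 6 with at least 1000 UMIs, at resolution 0.5 and with at least 50 UMIs. With 1000 UMIs, 8 list values in place of 13 were lower and 52.8% of cluster 5 in smoke had both receptors. With at least 50 UMIs, 8 values were higher (aneurysm over room air), and with no minimum 10 were (smoke over room air).

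No paired analysis was possible because each group is 1 library, and for the same reason no replicate was left out. Depth limits the aneurysm library most, and levels of a few CPM rest on a few UMIs.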
